A study of Mus musculus with 12 samples.

Results

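The subject here is the proximal part of mouse chromosome 7, from 15 to 36 Mb on the genome build mm8, as measured by array-based comparative genomic hybridization (aCGH) in liver tumors of Mdr2-KO/FVB mice. It comprised the 554 probes of the array, of 42404 in all, whose start lay above 15 Mb and at or below 36 Mb. The interval was chosen because of high log2 ratios of these same arrays, so the ratios within it are given as a description. The comparison of the groups over all bins of the genome, which includes these probes, is given for its count over the genome. Values of the interval's own bins are a description. A log2 ratio sets the DNA of a tumor against that of distant liver tissue without tumor from the same animal, and 0 stands for the median of the autosomal probes of that tumor.

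Mdr2-KO mice lack Abcb4, the phospholipid transporter of the bile canaliculus, and develop chronic inflammation of the liver followed by hepatocellular carcinoma. All mice of both groups carried this knockout on the FVB background. The post-PHx group consisted of 6 tumors, from 4 male and 2 female mice aged 9 months, and these mice had undergone a 70% partial hepatectomy at an age of 3 or 6 months. The spontaneous group consisted of 6 tumors of untreated mice aged 13 to 14 months (2 males and 4 females), so that treatment and age differed together between the groups. Each tumor was hybridized once, with the tumor in red and the liver in green, and no array had its dyes exchanged. A ratio averages over every cell of the piece of tumor, and a gain in all cells cannot be told apart from a larger gain in some of them. The tumor names used here give the group, the number and the sex.

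In a tumor, a stretch of DNA that is present in extra copies is called an amplification, and all genes on it gain copies together, whether or not they contribute to growth. The proximal part of murine chromosome 7 corresponds in its gene content to the long arm of human chromosome 19 and is rich in genes and in gene families that arose by local duplication, among them zinc finger (Zfp), cytochrome P450 (Cyp2), pregnancy-specific glycoprotein (Psg), Ceacam and vomeronasal receptor genes. It also carries apolipoprotein, DNA repair, NF-kB and iron-regulating genes. Murine chromosomes are acrocentric, so the interval lies toward the centromeric end of the chromosome. The probes of the interval carried 323 gene names in the files, 267 of which matched a gene of chromosome 7 in RefSeq (GRCm38.p6), in the same order on both maps. The median distance between neighbouring probes was 13.2 kb, against 21.8 kb over the genome.

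The array held 0 probes named for a microRNA in the interval, although RefSeq lists 16 microRNA genes between the genes measured there. All 16 were flanked on both sides by genes that lay in the amplified region of the tumor PHx3M, and 3 of them by genes amplified in both PHx1M and PHx3M. Of the gene names measured in the interval, 255 of 318 lay in the called region of PHx3M and 52 of 322 in that of PHx1M, so nothing particular to microRNAs is read from these counts. The mature microRNAs of these 3 are shown because their neighbours were amplified in both of these tumors; capitals mark the seed (bases 2 to 8, counted from the 5′ end), by which a microRNA pairs with its targets. The sequences are those of RefSeq (GRCm38.p6). Mir3100 lies between Dmpk and Six5, Mir330 between Gipr and Gpr4, and Mir343 between Ercc2 and Ckm.
mmu-miR-3100-5p: uUGGGAACggggugucuuuggga
mmu-miR-3100-3p: cUGUGACAcacccgcucccag
mmu-miR-330-5p: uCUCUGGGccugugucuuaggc
mmu-miR-330-3p: gCAAAGCAcagggccugcagaga
mmu-miR-343: uCUCCCUUcaugugcccaga
These 5 sequences had 5 different seeds. The neighbours of Mir3100 had log2 ratios of 0.99 and 0.75 in PHx3M and of 0.70 and 0.47 in PHx1M. Around Mir330, the ratios of Gipr and Gpr4 were 0.75 and 0.47 in PHx3M and 0.56 and 0.39 in PHx1M. Between these 2 genes the array also measured BC055476, a name without a match in RefSeq. Its only probe had 0.89 in PHx3M and 0.84 in PHx1M. Mir343 was flanked by ratios of 0.89 and 0.92 in PHx3M and of 0.57 and 0.63 in PHx1M. The copy number of the microRNA genes themselves was inferred from their neighbours alone.

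The 12 arrays stood on 3 slides of 4. The post-PHx tumors numbered 1 to 4 shared slide 1, the spontaneous tumors numbered 1 to 4 shared slide 3, and those numbered 5 and 6 of either group shared slide 2, the only slide with both groups. After removal of spots marked as outliers, 532 to 554 probes of the interval were measured per array, the fewest in PHx3M, where 25 spots were marked, against 9 at most elsewhere. The median signal of the interval's spots was at least 7.83 times the background in green and at least 4.88 times in red, and 0 spots were saturated. The spread of the ratios between neighbouring probes was 0.147 to 0.265, the largest in Spon2M.

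The interval was gained in several tumors of the post-PHx group, and most of all in PHx3M. The mean log2 ratio over its probes was 0.25 in PHx1M (SD over probes 0.27), -0.02 in PHx2F (0.18), 0.88 in PHx3M (0.44), 0.23 in PHx4M (0.25), 0.05 in PHx5M (0.17) and 0.01 in PHx6F (0.17). PHx3M thus stood alone at the top, with a mean of 1.84-fold over the liver, PHx1M and PHx4M followed, and the others lay near 0. In the spontaneous tumors, the mean was 0.18 in Spon1M (0.29), -0.01 in Spon2M (0.36), -0.21 in Spon3F (0.60), 0.16 in Spon4F (0.16), 0.02 in Spon5F (0.22) and 0.04 in Spon6F (0.17). Spon1M and Spon4F lay above the other spontaneous tumors, at levels within 0.1 of those of PHx1M and PHx4M. The groups overlapped, with a range of -0.02 to 0.88 (median 0.14, n = 6) in post-PHx and of -0.21 to 0.18 (median 0.03, n = 6) in spontaneous tumors.

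The mean over tumors was 0.23 ± 0.34 (SD, n = 6) in the post-PHx group and 0.03 ± 0.14 (SD, n = 6) in the spontaneous group. Their difference of 0.20 was smaller than the spread within the post-PHx group and fell to 0.07 without PHx3M. When all 2137 bins of 1 Mb of the genome were compared between the groups with limma, 0 passed an adjusted p of 0.05 (0%), and 120 had an unadjusted p below 0.05. The groups overlapped in each of the 16 bins of the interval. Since the interval was chosen on these same ratios, nothing is read from the direction or size of their differences.

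Outside slide 2, slide could not be told apart from group. The post-PHx tumors of slide 2, PHx5M and PHx6F, had means of 0.05 and 0.01 over the interval. All 3 post-PHx tumors with a gained interval were on slide 1, which held no spontaneous tumor, and all of them were males. With slide as a block in the model, which leaves only the 4 tumors of slide 2 to compare the groups, the median difference over the interval's bins was -0.01, against 0.22 without it. With sex in the model it was 0.14. Again, 0 bins of the genome passed the adjusted threshold in either model, with 32 and 259 at an unadjusted p below 0.05. The part of slide and of sex in the difference was not tested beyond these fits.

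The rest of chromosome 7 distinguished the tumors further. In PHx3M, the median log2 ratio was 0.02 on the 185 probes before the interval and -0.02 on the 2267 probes after it, against 1.02 within it. PHx4M had -0.06 before and -0.03 after the interval, against 0.24 within it. PHx1M had 0.13 before, 0.26 within and -0.01 after. Spon1M was highest before the interval, at 0.36, with 0.21 within and -0.01 after. By contrast, Spon4F was raised along the whole chromosome, with 0.11 before, 0.16 within and 0.14 after the interval. The elevation was therefore bounded within the chromosome in PHx1M, PHx3M and PHx4M. In Spon1M it was already present before the interval and was absent from the median after it. In Spon4F the interval did not stand out from its chromosome.

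**Figure D1:**
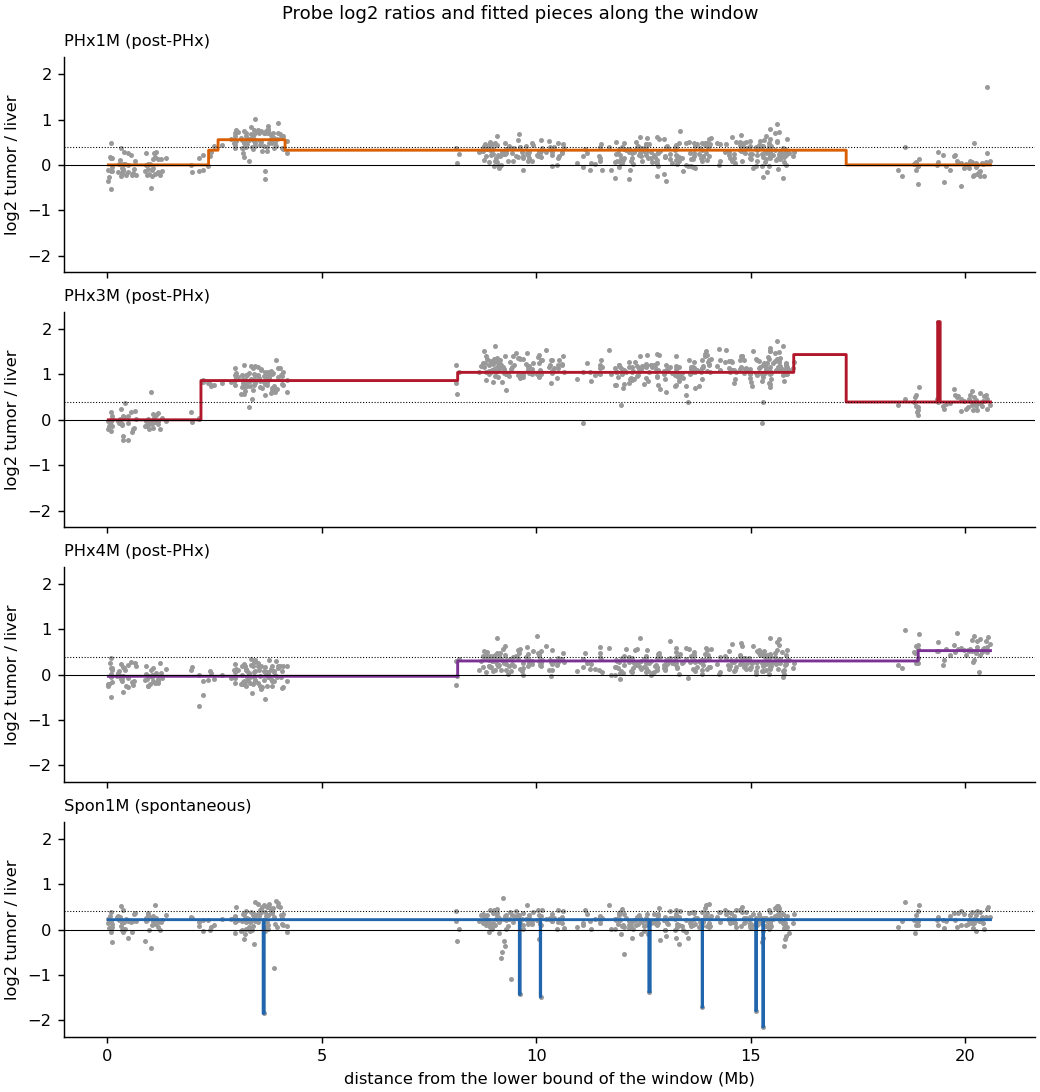
Log2 ratio of tumor over matched liver (y axis) of each probe (grey points) along the interval, as the distance from its lower bound in Mb (x axis), in PHx1M, PHx3M, PHx4M and Spon1M; coloured lines are the fitted pieces, drawn through stretches without probes, and the dotted line marks 0.4. PHx3M starts near 0 and rises to a mean of 0.87 and then to 1.12, while PHx1M and PHx4M are raised over different parts and Spon1M stays near 0.22 throughout.

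Amplified regions were called on each array alone, with a score like that of the ADM-2 algorithm, a mean log2 ratio of at least 0.4 and at least 2 probes. Such a region overlapped the interval in 3 of 6 post-PHx tumors (PHx1M, PHx3M and PHx4M) and in 0 of 6 spontaneous tumors. In PHx3M, 424 probes, 79.7% of those measured in the interval, lay in 1 called region, while over the genome 3.4% of the probes of this tumor lay in amplified regions. In PHx1M, 84 probes (15.4%) were called, against 1.16% over the genome, and in PHx4M 41 probes (7.45%), against 4.24%. The interval was selected on these values, and nothing is read from the excess. In the other tumors 0 probes of the interval were called amplified, while the share over the genome was 2.24% in PHx2F, 0% in PHx5M, 1.11% in PHx6F, 5.89% in Spon1M, 0.524% in Spon2M, 0.0932% in Spon3F, 0% in Spon4F, 0% in Spon5F and 0.645% in Spon6F.

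The called regions of the 3 tumors differed in position, length and height. In PHx3M, the region ran from 17227678 to 31013605, over 13.8 Mb with a mean log2 ratio of 1.06, corresponding to 2.09-fold. Its first probe was in Ceacam12 (0.87), and the last probe outside, 0.088 Mb before it, had a ratio of 0.01. In PHx1M, the region was shorter, from 17682341 to 19106274 (1.42 Mb, 84 probes, mean 0.55, 1.46-fold), between the genes Psg25 and 2210010C17Rik, which RefSeq names Igsf23. In PHx4M, it began with Gpi1 at 33913245 and ran beyond the interval to 40763238 (6.85 Mb, 66 probes, mean 0.57, 1.49-fold). The regions of PHx1M and PHx3M overlapped on 52 of the named genes, whereas that of PHx4M had no probe in common with either. PHx3M had 9 amplified regions over the genome, and that of chromosome 7 held the most probes of them. It was not the highest, since a region at the start of chromosome 5 had a mean of 1.65 over 85 probes in the same tumor.

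Lower pieces, below the level needed for a call, extended the gains. In PHx1M, the called region was followed by a piece at 0.32 from 19185030 to 31013605 (343 probes), and in PHx4M it was preceded by a piece at 0.30 from 23195255 to 33905583 (351 probes). In PHx3M, a piece at 0.39, just below 0.4, followed the called region from 33446176 to 42202373, with 1 higher probe within it. Spon1M had a piece at 0.22 along the whole interval, interrupted by single low probes, and PHx5M one at 0.05 from 15076991 to 46640614. Counting pieces of at least 0.2, 325 probes (58.7%) were gained in all 3 of PHx1M, PHx3M and PHx4M, and they ran from 23195255 to 31013605. In this shared part the fitted level exceeded 0.4 in PHx3M alone of these 3 tumors. The cutoff of 0.2 also counted 549 of the 554 probes of the interval as gained in at least 1 spontaneous tumor, as the piece of Spon1M lay above it. A gain at this level was thus not particular to the post-PHx group.

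Several ends fell on the same probes. The piece of PHx1M at 0.32 and the called region of PHx3M both ended with the probe of Abpe at 31013605. The start of the gain in PHx4M and an inner step of PHx3M both lay between Nlrp5 (23145423) and the next probe (23195255). The former end adjoins a stretch of 2.43 Mb without probes, up to Abpz at 33446176, where RefSeq lists 25 coding genes, all of the secretoglobin (Scgb) family. The latter lies next to the largest stretch without probes, 3.94 Mb between Nlrp9b and Nlrp5, for which RefSeq lists 86 coding genes, 70 of them Vmn1r vomeronasal receptors. How far the gains of PHx1M and PHx3M reach into the stretch after Abpe was not measured.

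At the lower bound of the rule, the 3 probes just inside had a mean log2 ratio of -0.12 in PHx3M, -0.25 in PHx1M and -0.22 in PHx4M, and the 3 probes just outside had 0.03, 0.19 and -0.01. At the upper bound, the means were 0.39 inside and 0.43 outside in PHx3M, 0.70 and 0.58 in PHx4M, and 0.18 and -0.07 in PHx1M. The lower bound thus lay in DNA without a gain in PHx3M and PHx4M, while the upper bound cut through the gains of both.

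The steps of PHx3M divided the interval into 4 stretches, which were then compared among the tumors. Stretch 1 (15025385 to 17140122, 63 probes, from Crx onward) was not gained in the post-PHx tumors, whose means were between -0.03 and 0.04. Spon1M and Spon4F had 0.16 and 0.14 there, and the highest post-PHx tumor was PHx5M. Bbc3, which encodes the pro-apoptotic protein Puma, had -0.44 in PHx3M and -2.68 in Spon3F on its only probe. The same probe had -0.41 in PHx2F, -0.27 in PHx4M and 0.32 in Spon2M, so a low value was not particular to PHx3M. In Spon3F it belonged to the scattered low probes described below.

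Stretch 2 (17227678 to 23145423, 95 probes, Ceacam12 to Nlrp5) was gained in PHx1M and PHx3M. The mean log2 ratio was 0.51 in PHx1M (SD over probes 0.23), -0.04 in PHx2F (0.18), 0.87 in PHx3M (0.18), -0.01 in PHx4M (0.19), 0.05 in PHx5M (0.15) and 0.03 in PHx6F (0.17). The spontaneous tumors lay between -0.24 in Spon3F and 0.21 in Spon1M (median 0.03), below both PHx1M and PHx3M. In PHx3M, whose steps set the bounds of this stretch, 56 of 57 genes reached 0.4, and in PHx1M 46 of 57 did. In Spon1M 12 of 57 genes reached it and in Spon2M 5 of 57, with 0 to 2 in the other spontaneous tumors.

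Stretch 3 (23195255 to 31013605, 344 probes) held most of the probes and was gained in 3 post-PHx tumors. The mean log2 ratio was 0.26 in PHx1M (SD 0.20), -0.02 in PHx2F (0.18), 1.12 in PHx3M (0.23), 0.30 in PHx4M (0.17), 0.05 in PHx5M (0.17) and 0.01 in PHx6F (0.17), and between -0.22 and 0.16 in the spontaneous tumors. PHx3M was 2.17-fold over its liver, while PHx1M and PHx4M exceeded the highest spontaneous tumors, Spon1M and Spon4F, by 0.10 to 0.14. The order of stretches 2 and 3 was opposite in PHx1M, which was higher in stretch 2 by about the SD of its probes, and in PHx3M, which was higher in stretch 3.

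Stretch 4 (33446176 to 35594410, 52 probes) was gained in PHx3M and PHx4M. The mean log2 ratio was 0.03 in PHx1M, -0.01 in PHx2F, 0.43 in PHx3M (SD 0.29), 0.54 in PHx4M (SD 0.20), 0.01 in PHx5M and -0.02 in PHx6F. Spon1M had 0.23 and the other spontaneous tumors -0.19 to 0.16. It was the only stretch in which PHx4M lay above PHx3M. In PHx4M 23 of 26 genes reached 0.4, and in PHx3M 13 of 26 did. Among the spontaneous tumors, 0 to 3 genes reached it, the most in Spon1M.

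**Figure D2:**
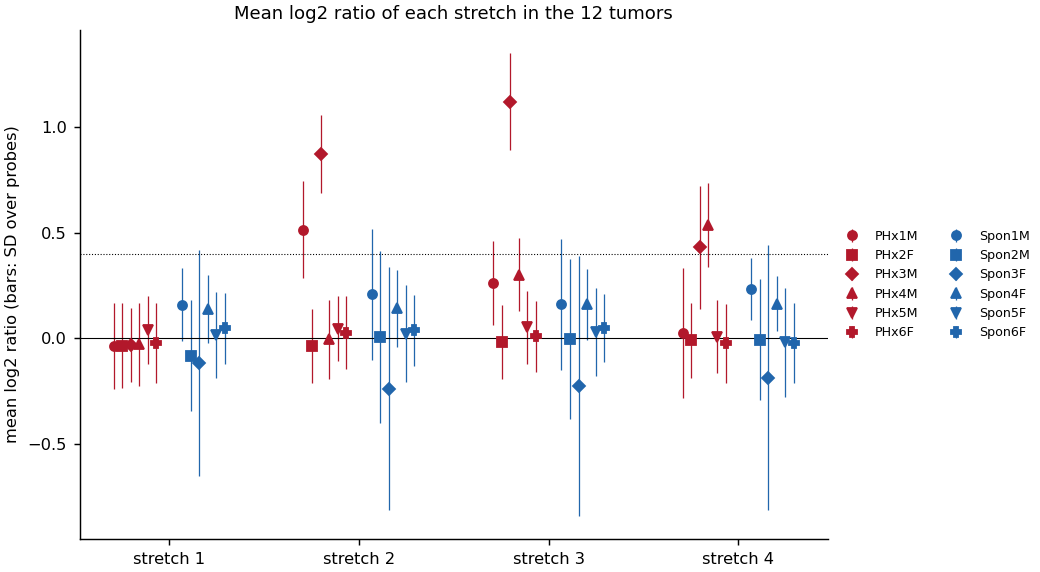
Mean log2 ratio (y axis, points, with bars for the SD over probes) of the 4 stretches of the interval (x axis) in the 6 post-PHx (red) and 6 spontaneous (blue) tumors; the dotted line marks 0.4. Only PHx1M and PHx3M exceed 0.4 in stretch 2, only PHx3M in stretch 3, and only PHx3M and PHx4M in stretch 4.

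Since copy number was measured for DNA, the genes below are described by their place on these gains, and their expression was not measured on these arrays. Of the 318 gene names measured in PHx3M, 255 had every probe in the called region, against 3.38% of all gene names of the genome in this tumor. In PHx1M it was 52 of 322 (0.991% over the genome), and in PHx4M 22 of 323 (4.18%). The genes of a list share these regions with their neighbours, so nothing particular to a gene class is read from the counts below. The median log2 ratio of all gene names of the interval was 1.003 in PHx3M, 0.26 in PHx1M, 0.24 in PHx4M and 0.21 in Spon1M. Many genes were covered by 1 or 2 probes, and of these the ones named below were picked after their values were seen.

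Of the 3 DNA repair genes measured, 2 lay in stretch 2, as did both NF-kB genes measured. The listed genes Lig1, Ppp1r13l, Nfkbib and Nfkbid had no probe of their name in the interval. Ercc1, a subunit of the endonuclease of nucleotide excision repair, had log2 ratios of 1.08 in PHx3M, 0.74 in PHx1M and 0.01 in PHx4M on 2 probes. Ercc2, the helicase of the same pathway, had 0.89, 0.57 and -0.07. Both were thus gained in PHx3M and PHx1M. Xrcc1, a scaffold of single-strand break repair in stretch 3, had 1.23 in PHx3M, 0.35 in PHx1M and 0.54 in PHx4M. All 3 repair genes measured lay in the called region of PHx3M and 2 of 3 in that of PHx1M.
Relb, a subunit of the transcription factor NF-kB, had 0.93 in PHx3M and 0.60 in PHx1M, and Bcl3, which binds NF-kB subunits in the nucleus, had 1.04 and 0.81. In Spon1M, Relb and Bcl3 had 0.53 and 0.55, above the median of 0.21 of its gene names. This was not particular to Spon1M. The median of both genes also lay above that of all gene names in tumors without a gain, such as PHx6F (0.22 against 0.02) and Spon6F (0.27 against 0.06). It lay below in PHx3M (0.98 against 1.003) and PHx4M (0.15 against 0.24). Both NF-kB genes measured were in the amplified regions called in PHx1M and PHx3M, the only amplified regions that reached into stretch 2. Of all gene names, 52 of 322 lay in the called region of PHx1M and 255 of 318 in that of PHx3M.

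Genes of liver function were spread over stretches 2 to 4. Of 14 such genes measured, 11 were in the called region of PHx3M, 3 in that of PHx1M and 3 in that of PHx4M, with medians of 1.02, 0.29 and 0.32. For all gene names the counts were 255 of 318, 52 of 322 and 22 of 323. Apoe, an apolipoprotein through which the liver clears lipoprotein remnants, had 1.02 in PHx3M, 0.70 in PHx1M and 0.08 in PHx4M. Near it lay Apoc2, an activator of lipoprotein lipase, with 0.66, 0.53 and -0.19. Between them, Apoc4 had 1.02, 0.56 and 0.20 on its only probe. Ethe1, an enzyme of mitochondrial sulfide oxidation with 3 probes, had 0.89 in PHx3M and 0.30 in PHx1M, and 0.22, 0.18, 0.14 and 0.25 in PHx4M, Spon1M, Spon4F and Spon5F. Its values in the other tumors were between -0.30 and 0.14.
Hamp1, which encodes hepcidin, the hormone of iron balance made by hepatocytes, had 1.32 in PHx3M, -0.09 in PHx1M and 0.12 in PHx4M on its single probe, and 0.51 in Spon1M. Its neighbour Usf2, a transcription factor, had 1.40 in PHx3M, 0.48 in PHx1M and 0.73 in PHx4M. The values of these neighbours differed by more than the spread between neighbouring probes in PHx1M (0.19) and PHx4M (0.18), so that single genes are less certain than stretches.
Cebpa, a transcription factor that maintains hepatocyte differentiation, lay in stretch 4 and had 0.53 in PHx3M, 0.57 in PHx4M and 0.05 in PHx1M. Near it, Cebpg had 0.54, 0.50 and 0.22, and Gpi1, the glycolytic glucose phosphate isomerase, had 0.73, 0.78 and 0.12. These genes were all inside the called region of PHx4M and outside that of PHx3M.

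The Cyp2 genes, which encode cytochrome P450 enzymes that oxidize drugs and steroids, formed a cluster in stretch 3. The 5 that the files name so were all in the called region of PHx3M, with log2 ratios of 0.96 to 1.31, and 0 were in those of PHx1M or PHx4M. A further gene of the cluster, EG243881 in the files and Cyp2b23 in RefSeq, had 0.99 in PHx3M. Cyp2b10, the phenobarbital-inducible enzyme of the liver, had 1.31 in PHx3M, 0.37 in PHx1M and 0.40 in PHx4M. Cyp2b19, with 3 probes, had 1.07, 0.25 and 0.33. In Spon1M these genes had 0.34 and 0.19.
The largest family was that of the zinc finger genes (Zfp). The 25 named so in the files all lay in the called region of PHx3M, between 0.83 and 1.41, while their medians were 0.35 in PHx1M, 0.31 in PHx4M and 0.24 in Spon1M. RefSeq gives Zfp symbols to 4 more genes of the interval, C030039L03Rik, 4732475C15Rik, 1700049G17Rik and 6330581L23Rik, which had 0.95 to 1.26 in PHx3M. Of the 11 Psg and Ceacam genes, 7 were in the called region of PHx3M and 4 in that of PHx1M. Ceacam11, just before the start of the region of PHx3M, had 0.04 in this tumor, and Ceacam12, at its start, had 0.87. Ceacam10 and Ceacam2, past the end of the region of PHx1M, had 0.38 and 0.28 in PHx1M and 1.22 and 1.54 in PHx3M. Of the vomeronasal receptors the array measured 2, both at over 1 in PHx3M.

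Among genes of growth and signalling, 13 of 15 measured in PHx3M were in its called region (median 0.93), against 255 of 318 for all gene names. In PHx1M (median 0.18) and PHx4M (median 0.27) it was 0 of 16, against 52 of 322 and 22 of 323. Pou2f2, a transcription factor of lymphocytes covered by 3 probes, had 1.13 in PHx3M, 0.18 in PHx1M and 0.35 in PHx4M, and between -0.34 and 0.26 in the spontaneous tumors. Axl, a receptor tyrosine kinase, had 0.93 in PHx3M, -0.01 in PHx1M and 0.21 in PHx4M. Pak4, a kinase of the cytoskeleton, had 1.01, 0.10 and 0.16. Both stood apart only in PHx3M. The only probe of Akt2, a kinase of insulin signalling, was marked as an outlier in PHx3M and gave no value there; it had 0.52 in PHx1M and 0.22 in PHx4M.
Sirt2, which encodes a deacetylase, had 0.93 in PHx2F on its only probe, against a mean of -0.02 of stretch 3 in this tumor, and 0.54 in PHx3M and 0.59 in PHx4M. Of the 6 genes of this list without a probe of their name in the interval, Tgfb1, Gsk3a, Cic, Fosb, Ccne1 and Cd79a, no value is given. The muscle genes Dmpk, Ckm and Ryr1, which encode a kinase, a creatine kinase and a calcium channel, had 0.99, 0.92 and 0.98 in PHx3M and 0.70, 0.63 and 0.36 in PHx1M. In PHx3M they thus lay close to the median of all gene names of the interval.

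**Figure D3:**
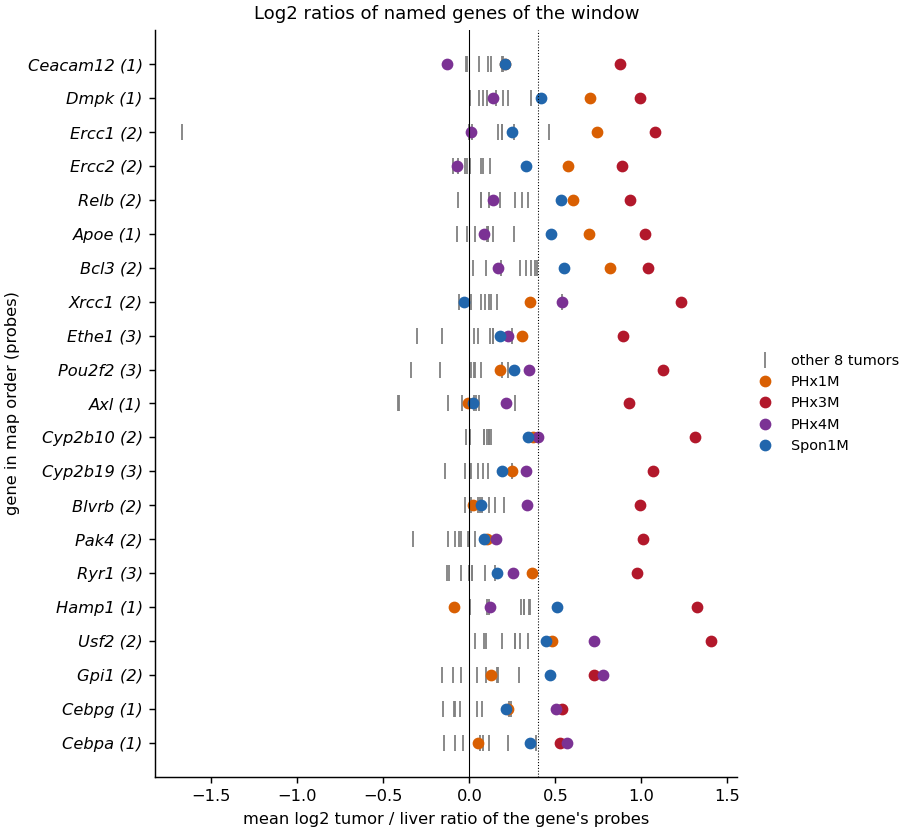
Mean log2 ratio (x axis) of genes of the interval in map order (y axis, number of probes in brackets) in PHx1M, PHx3M, PHx4M and Spon1M (coloured points) and the other 8 tumors (grey ticks); the dotted line marks 0.4. PHx3M is highest in all genes shown but Gpi1 and Cebpa, where PHx4M is, and PHx1M is second from Dmpk to Bcl3.

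Of the 323 gene names, 25 had at least 3 probes. By rank among these 25, the highest in PHx3M were 2 transcripts that the files name by accession alone, at 24898170 (1.23, 7 probes) and 27782652 (1.18, 7 probes), together with Sipa1l3 (1.21), a regulator of Rap signalling. In PHx1M, the highest were an unnamed transcript at 17969088 (0.57, 9 probes), Sipa1l3 (0.54) and Sbsn (0.39). The 9 probes of that transcript ran as far as 18344086, across other genes. In PHx4M, they were 2410004F06Rik (0.49; Tdrd12 in RefSeq), 1190020J12Rik (0.41; Nccrp1) and Sae2 (0.38; Uba2, of the SUMO-activating enzyme). Crx and Dhx34, both of stretch 1, were among the 3 lowest in all 3 tumors, at -0.25 and -0.07 in PHx1M, -0.12 and -0.25 in PHx3M and -0.22 and -0.08 in PHx4M. The third of the lowest was Gltscr2 (Nop53 in RefSeq) in PHx1M (-0.14) and PHx3M (0.02), and in PHx4M the transcript at 17969088 (-0.03), which was the highest in PHx1M.

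Whether a high ratio came from the tumor or from the liver channel was read from each channel against the same probes on the other 11 arrays. In stretch 3 of PHx3M, the red signal of the tumor was higher by 0.92 (log2) and the green signal of the liver was lower by 0.10. In stretch 2, PHx3M had 0.65 in red and -0.12 in green, and PHx1M 0.37 and -0.04. PHx4M had 0.44 in red and 0.00 in green in stretch 4, and in its stretch 3 only 0.11 and -0.08, where PHx1M had 0.12 and -0.03. The larger gains were therefore carried by the tumor channel. The red signal of PHx2F was low in stretches 2 and 3, by -0.26 and -0.20, with -0.08 and -0.05 in green.

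**Figure D4:**
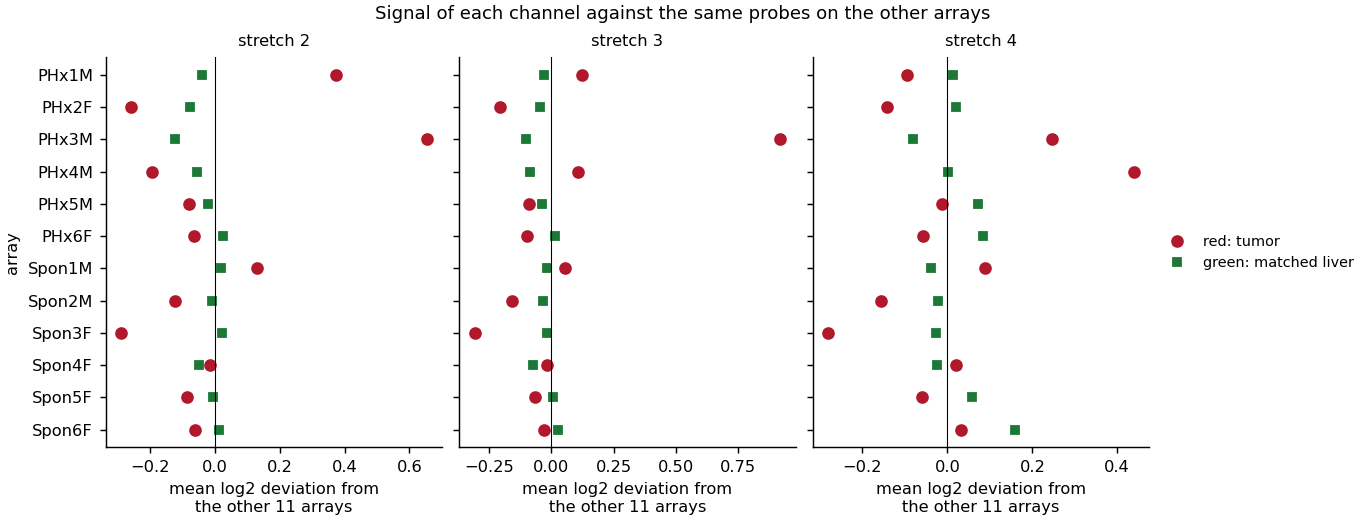
Mean deviation (x axis, log2) of the red (tumor, circles) and green (liver, squares) signals of each array (y axis) from the median of the same probes on the other 11 arrays, in stretches 2, 3 and 4. The red points of PHx1M and PHx3M in stretch 2, of PHx3M in stretch 3 (0.92) and of PHx4M in stretch 4 (0.44) lie apart to the right, and the green points of these arrays in the same stretches stay between -0.12 and 0.00.

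Single probes with very low ratios set Spon3F apart. On its array, 50 of the 550 probes of the interval (9.09%) had a log2 ratio of -1 or below, against 1495 of 41854 (3.57%) over the genome, and they were scattered among probes near 0. The other 11 arrays had 0 to 8 such probes each in the interval. Some of them formed 8 short deleted regions in Spon3F, 7 of them of 2 to 4 probes, which together held 24 probes of the interval (4.36%, against 1.95% of the probes over the genome). One covered Ercc1, which had a mean of -1.67 in Spon3F, and another a probe of Hpn. Without these 50 probes the mean of Spon3F was -0.04 instead of -0.21, near those of Spon2M and PHx2F.
The same probes were not low in general, with medians of 1.03 in PHx3M, 0.26 in Spon4F and 0.28 in PHx1M. In Spon3F, their red signal was lower than on the other arrays by a median of -1.86 and their green signal higher by 0.14. Of the 50 probes, 8 were also at or below -1 in Spon1M (-2.14 to -1.08), and these 8 were at 1.04 to 2.60 in Spon2M, which was on the same slide. The fourth tumor of that slide, Spon4F, had 0.13 to 0.65 at them. They included the hormone-sensitive lipase gene Lipe, with one of its probes at -1.48 in Spon1M, 2.51 in Spon2M and -3.11 in Spon3F. The source of these ratios was not tested.

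**Figure D5:**
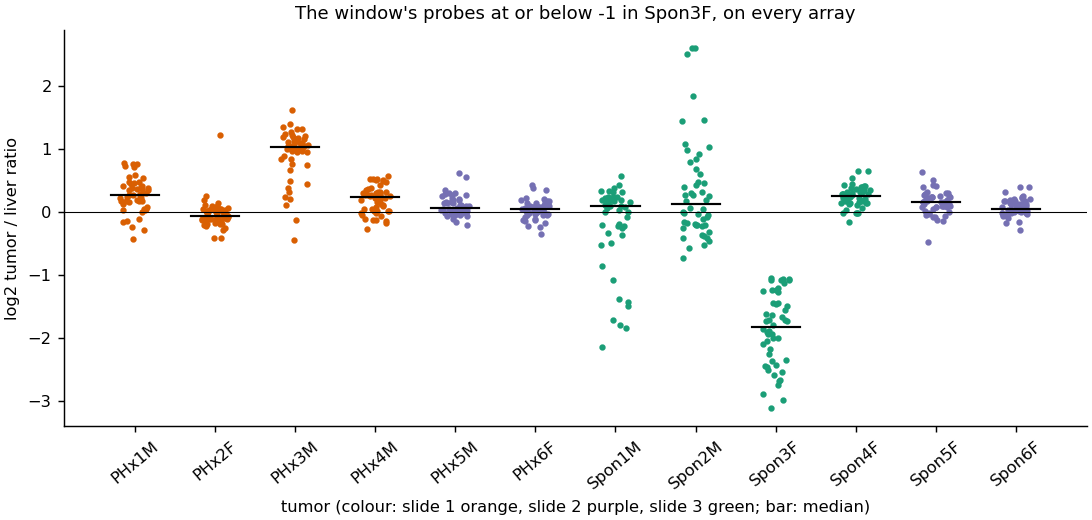
Log2 ratio (y axis) of the 50 probes of the interval that were at -1 or below in Spon3F, on each of the 12 arrays (x axis), coloured by slide, with the median as a bar. The median is -1.83 in Spon3F and 1.03 in PHx3M, and 8 of the probes lie below -1 in Spon1M and above 1 in Spon2M.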

How the data were processed

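Genomic DNA of 12 liver tumors was compared with liver without tumor of the same animals on 2-colour Agilent arrays, 1 per tumor. Per the file headers, Feature Extraction 10.5.1.1 wrote for each spot a log10 ratio (red, the tumor, over green) with an error, and the deposited intensities of each channel, corrected for background and dye. The errors served only as weights. Positions are those of the files (mm8, NCBI36). No loess or quantile step was applied.

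The members and gene lists were chosen with earlier results of these data known. Control and outlier spots were left out, log10 ratios multiplied to the log2 scale, spots of a probe averaged, and each array centred on its autosomal median. To call regions, an interval score weighted by these errors, like that of ADM-2, was used (score threshold 6, at least 2 probes, absolute mean at least 0.4). Means per bin of 1 Mb (3 probes or more) entered limma 3.58.1 in R 4.3.3 (all 12 arrays, Benjamini-Hochberg adjustment over all bins). Caller and fit were tested on simulated data. The other steps used Python 3.11.15, numpy 2.4.6, scipy 1.17.1, pandas 2.3.3, numba 0.67.0 and matplotlib 3.10.9. A gene's ratio is the mean of its named probes. By rule, genes of fixed lists with at least 3 probes, genes at called ends, and the 3 highest and lowest genes in each tumor with a called region were named; others are marked as picked after their values were seen. The 4 stretches were taken from the pieces of PHx3M.

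Alternatives were normexp correction (offset 50), centring on the mode or none, a restriction to probes well above background, equal weights, other thresholds, medians, larger bins, models with the slide, the sex or the number of the tumor, and each tumor left out in turn. Chromosome Y was left out. The number of arrays, 1 per tumor, limits the precision.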

Additional observations from a re-analysis of the deposited data

Results flagged for a closer look

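For 26 measures in 2 groups, 52 sets of tumors in all, the tumor at either extreme was compared with its nearest neighbour by Dixon's criterion, which chance meets in about 1 of 20 groups that were not chosen on their values. Here the interval was chosen on these ratios, stretch 3 was delimited by the steps of PHx3M and some genes were named for their rank in it, so the 10 sets that met the criterion are a description and no test. In each, a post-PHx tumor lay above the others of its group. It was PHx3M in the mean log2 ratio over the interval (0.88, the next tumor 0.25) and over stretch 3 (1.12, the next 0.30). The same held for 7 genes of stretch 3, which share this gain and are not separate observations: Ethe1 (0.89), Pou2f2 (1.13), 1190020J12Rik (1.02), Sbsn (1.08), Abpe (1.28) and the transcripts at 24898170 (1.23) and 27782652 (1.18). It was PHx5M in stretch 1 at 0.0388, where the other 5 post-PHx tumors lay between -0.03 and -0.02. The criterion was not met in stretch 2 or stretch 4, where a second tumor was also gained, or in the spontaneous group.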

How the results depend on the processing

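Between 0.0736 and 0.254 lay the group difference of the interval's means when each tumor was left out in turn or the processing was changed. The lowest value was that without PHx3M. The interval was chosen for high ratios on these arrays, so nothing is read from the sign of this difference. The models with slide or sex were applied to the bins only. The number of post-PHx tumors with an amplified region was 3 under all settings but score threshold 10 and a filter of 0.6, where it was 1 (PHx3M), and 2 to 3 with a tumor left out; in spontaneous tumors it was 0 throughout. The amplified length within the interval rose from 1.42 to 13.6 Mb in PHx1M and from 2.09 to 12.8 Mb in PHx4M with a filter of 0.25, as the piece at about 0.3 joined the call; in PHx3M it was 13.6 to 13.8 Mb, but 18.8 Mb with this filter or centring on the mode and 18.6 Mb with equal weights. With normexp correction it was 0.923 Mb in PHx1M. The mean of Spon3F was -0.0303 as a median and -0.0438 without its probes at or below -1, an alternative chosen after seeing the data. The number of bins past the adjusted threshold was 0 in the interval and over the genome under every alternative. The median difference of the interval's bins was -0.00542 with slide as a block and also within slide 2 alone, and 0.08 to 0.27 with a tumor left out (0.08 without PHx3M). With the tumor number as a replicate block it was 0.22, as without it, with 0 bins called; same-numbered tumors come from different mice, and the correlation of their deviations was -0.13 to 0.39 over the 6 pairs, above 0.1 in 1, so the numbers do not pair the tumors. Of the gene ratios named by rule, 62 of 63 moved by less than the spread between neighbouring probes with a median over probes, and 54 of 63 with the value of the fitted piece. Shifts below the filter of 0.4, 1 array per tumor and few probes per gene limit what can be called, and slide 1 and slide 3 each held a single group.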
